A study of Arabidopsis thaliana with 9 samples.

Results

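Germinating Arabidopsis thaliana seeds that carried an ARF10 transgene with an intact microRNA160 target site were compared with wild-type seeds of accession Col-0. The comparison rested on 6 of the 9 arrays of the study, 3 of ARF10 and 3 of Col-0, chosen by their titles, and on 15922 of 22746 non-control probe sets. The construct in ARF10 seeds joined the coding region of the gene (2.3 kb) and its own upstream region (3 kb) to the green fluorescent protein (GFP) sequence, so the gene's own promoter drove it. Col-0 seeds are the untransformed wild type. The other 3 arrays were of mARF10 seeds, whose transgene had 4 mutations in the microRNA160 site. They entered the estimate of spread and are given beside some values. All seeds were kept wet for 3 days in the cold (4 °C) and dark, and RNA was taken after a further 22 h of light at 22 °C. Each sample held 3 seed lots, and per the labels the replicates were independent biological ones. The number of transgenic lines is not given in the sources used here.

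ARF10 is a transcription factor of the auxin response factor family. MicroRNA160 pairs with its transcript and directs its cleavage, which keeps its level low. In a seed, the maturation programme fills the embryo with storage proteins and oil bodies and with late embryogenesis abundant (LEA) proteins, which protect cells during drying. Transcripts of that programme are stored in the dry seed and are lost as germination proceeds, while genes of photosynthesis and of seedling metabolism come on. Abscisic acid keeps the maturation programme on, and gibberellin promotes germination.

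Among genes with a name, the largest differences lay in genes of seed maturation, whose signals were lower with the ARF10 transgene. M17 and M10, both LEA genes, PAP85, a vicilin-type storage protein, and AT2G28490, a storage protein of the cupin family, were each more than 5-fold lower in mean signal. Without Col-0 replicate 3 their log2 differences were smaller, at -3.04, -2.01, -1.98 and -2.04. Genes of photosynthesis and chlorophyll synthesis had smaller, mostly positive differences, with medians on the log2 scale of 0.41 for antenna and photosystem genes, 0.47 for the Calvin cycle and 0.28 for chlorophyll synthesis. Without Col-0 replicate 2 these medians were 0.11, -0.009 and 0.09. No probe set passed an adjusted p of 0.05 in limma's moderated test (0 of 15922, or 0% called), and the smallest adjusted p was 0.0787. Before adjustment, 739 probe sets (4.64%) had p under 0.05, of which 387 were lower (2.43%) and 352 higher (2.21%) in ARF10. That split depended on scaling: 321 were lower and 436 higher after quantile normalization, and 265 lower and 647 higher after centring each array on its median. With the replicate number as a block, 0 probe sets passed and the unadjusted count was 997 (6.26%) for the 6 arrays alone and 1157 (7.27%) over all 9. In whole seeds, fewer cells of a type and less RNA per cell cannot be told apart.

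Values are log2 signals, and a difference is ARF10 minus Col-0, so that -1 is a 2-fold lower signal. The median difference over all tested probe sets was 0.008, and 1% of them lay below -0.54 and 1% above 0.38. The tail on the lower side was longer. At least 2-fold lower in ARF10 were 65 probe sets (0.408%), the farthest at -3.38, and at least 2-fold higher were 3 (0.0188%), the farthest at 1.04. The arrays of the 2 genotypes did not overlap in 1465 probe sets (9.20%), with ARF10 below Col-0 in 575 (3.61%) and above it in 890 (5.59%). Of 8846 tested genes with a name, 4232 (47.8%) had a negative difference. The median standard error (SE) of a difference was 0.10, and the median 95% interval reached 0.225 to either side.

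**Figure D1:**
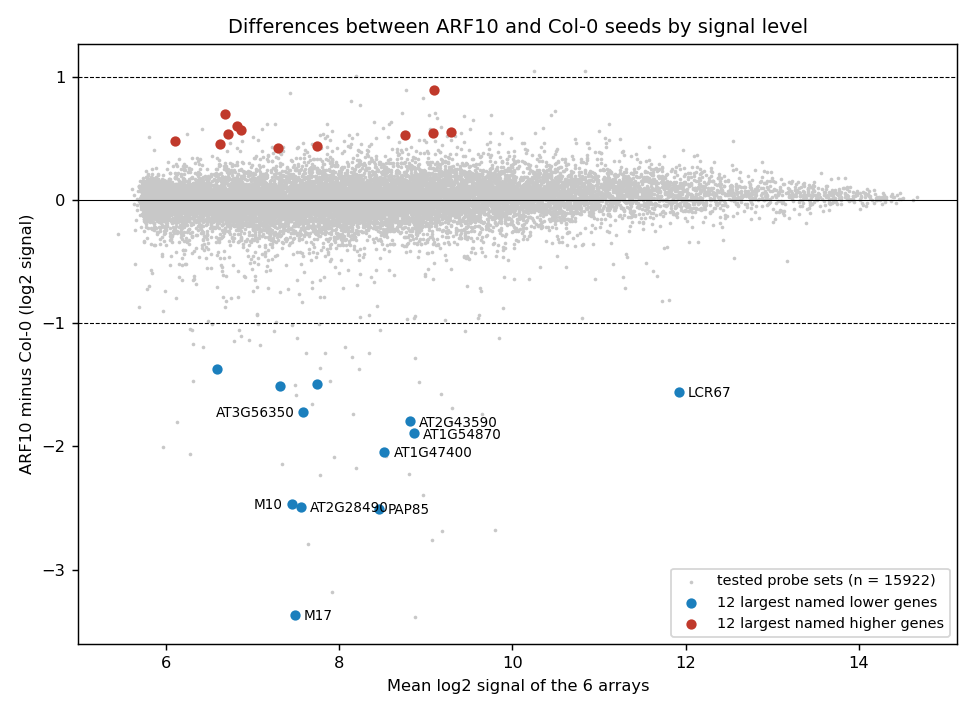
Difference between ARF10 and Col-0 (vertical axis, log2 signal) against the mean log2 signal of the 6 arrays (horizontal axis) for 15922 probe sets, 1 grey point each; blue and red points are the 12 named genes with the largest negative and positive differences under the naming rule, and dashed lines mark 2-fold. The points below the lower line outnumber those above the upper line, 65 to 3, and M17 is the lowest named gene.

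The 2 genotypes differed in how much their arrays varied. Array-to-array correlations across probe sets, given as a description, were 0.995 to 0.997 within ARF10, 0.968 to 0.99 within Col-0 and 0.973 to 0.995 between them. The SD over 3 arrays was larger in Col-0 than in ARF10 for 11770 probe sets (73.9%), with medians of 0.14 and 0.083. In a principal component analysis of the 6 arrays, the 1st component (62.4% of the variance) put Col-0 replicate 2 at 39.38 and the other 5 arrays between -17.63 and 3.00. The 2nd (16.7%) put the ARF10 arrays at 5.43 to 11.41 and the Col-0 arrays at -11.60, 0.31 and -14.38. The 3' minus 5' signal of the GAPDH control probe sets was 0.45, 0.61 and 0.27 on Col-0 replicates 1, 2 and 3 and 0.33, 0.25 and 0.37 on the ARF10 arrays. That of the actin controls was larger, at 2.40, 2.74 and 2.68 on the Col-0 arrays and 2.34, 2.57 and 2.61 on the ARF10 arrays. For the ubiquitin controls it was 1.77, 1.71 and 1.55 against 1.57, 1.54 and 1.64. The part of these values in any result was not tested. Because Col-0 arrays stood apart from each other, many of the results below are also given without single Col-0 arrays.

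Among the seed storage and oil body genes, 7 of the 9 named on the array were tested, and all 7 had negative differences, with a median of -0.74. None passed the adjusted threshold, and 5 had an unadjusted p under 0.05 (2.43% of all tested probe sets were lower at that p). In 3 there was no overlap between the genotypes (3.61% of all tested probe sets on the lower side). With the replicate number as a block, 6 of the 7 had an unadjusted p under 0.05 (6.26% of all tested probe sets in either direction). The mean signal of the 7 genes was 7.99, 8.99 and 9.06 on Col-0 replicates 1, 2 and 3, against 7.45, 7.90 and 7.26 on the ARF10 arrays. The lowest Col-0 array was replicate 1, which lay just above the highest ARF10 array, replicate 2. Without Col-0 replicate 1 the median of the list was -1.06, and without replicate 2 or 3 it was -0.59 or -0.62.

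PAP85, of the vicilin family of storage proteins, was at 8.14, 10.23 and 10.77 on the Col-0 arrays and at 7.29, 7.75 and 6.58 on the ARF10 arrays. Every ARF10 array was below every Col-0 array, but Col-0 replicate 1 lay closer to ARF10 replicate 2 than to either other Col-0 array. The difference was -2.51 (SE 0.67, 95% interval -4.03 to -0.99, adjusted p = 0.892). Without Col-0 replicate 1, 2 or 3 it was -3.29, -2.25 or -1.98. AT2G28490, a cupin, was at 7.63, 9.09 and 9.70 in Col-0 and at 6.31, 6.95 and 5.69 in ARF10 seeds. Its arrays did not overlap either, and its difference was -2.49 (SE 0.53, adjusted p = 0.892). Without Col-0 replicate 1, 2 or 3 that difference was -3.08, -2.35 or -2.04.

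AT4G36700, another member of the storage list, differed by -0.50 (SE 0.33) with overlapping arrays, and by -0.17 without Col-0 replicate 2. The oleosins, which coat oil bodies, also differed less than PAP85 and AT2G28490. AT2G25890 was at 7.93, 9.27 and 9.17 in Col-0 and at 7.29, 8.09 and 7.17 in ARF10, a difference of -1.27 (SE 0.38). AT3G01570 differed by -0.74 (SE 0.27) and AT3G18570 by -0.21 (SE 0.19), both with overlapping arrays. OLEO3 was the tightest of the group, at 9.72, 9.51 and 9.59 in Col-0 and at 9.37, 9.24 and 9.33 in ARF10 seeds. Its arrays did not overlap, at a difference of -0.29 (SE 0.12, unadjusted p = 0.0374). In mARF10 seeds the mean signal of OLEO3 was 10.40 and that of PAP85 10.54, both above the Col-0 means of 9.60 and 9.71. Neither difference between mARF10 and Col-0 passed in limma's moderated test (adjusted p = 0.185 for OLEO3 and 0.637 for PAP85).

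**Figure D2:**
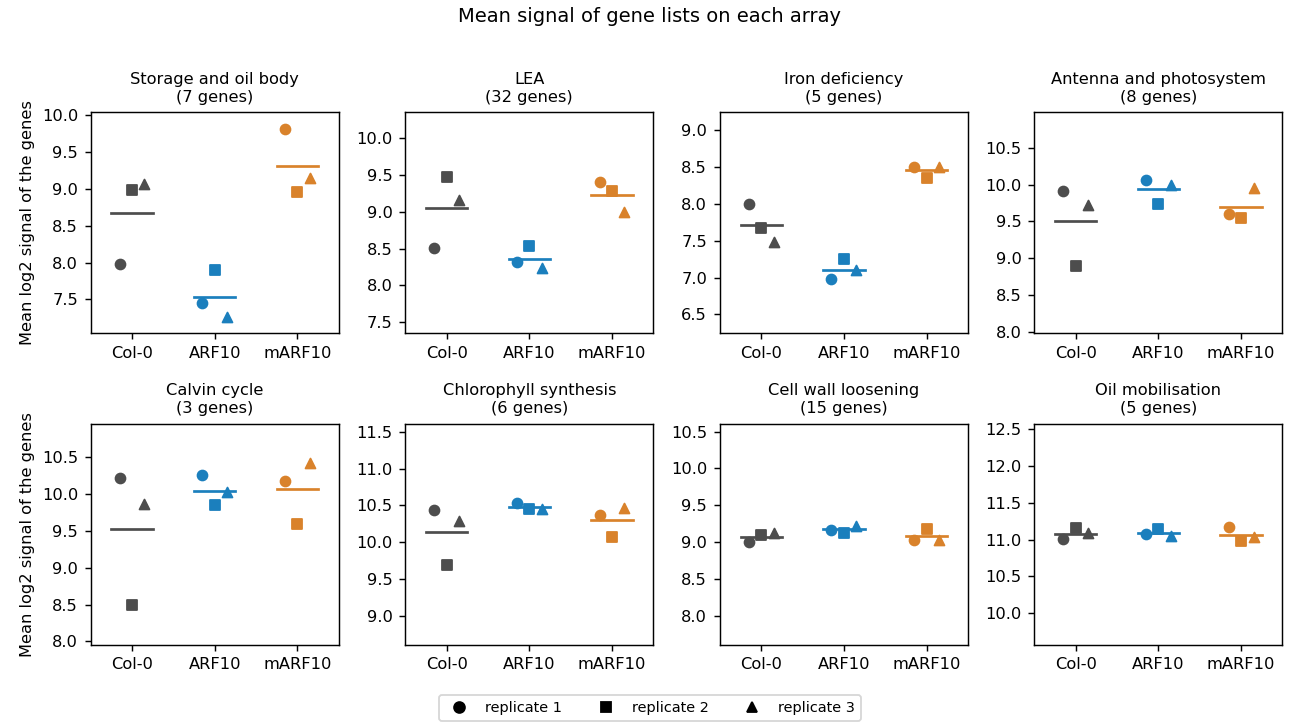
Mean log2 signal of the tested genes of 8 lists on each array (vertical axis; each panel spans the same number of log2 units) for Col-0, ARF10 and mARF10 (horizontal axis); symbols are replicates 1 to 3 and bars the genotype means. The ARF10 points of the storage list (7.26 to 7.90) lie below all Col-0 points (7.99 to 9.06), and the low Col-0 point in the antenna, Calvin cycle and chlorophyll panels is replicate 2.

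Of 35 LEA genes with a name, 32 were tested. Negative differences were found in 30 and positive ones in 2, with a median of -0.63, against 0.008 over all probe sets. None passed the adjusted threshold. An unadjusted p under 0.05 was found in 10, all lower (2.43% of all tested probe sets were lower at that p). In 4 there was no overlap between the genotypes (3.61% of all tested probe sets on the lower side). The mean signal of the 32 genes was 8.51, 9.47 and 9.16 on the Col-0 arrays and 8.32, 8.54 and 8.23 on the ARF10 arrays, so that Col-0 replicate 1 lay inside the ARF10 range. With the replicate number as a block, 13 of the 32 had an unadjusted p under 0.05 (6.26% of all tested probe sets in either direction). The median was -0.93 without Col-0 replicate 1, -0.30 without replicate 2 and -0.49 without replicate 3. The members share their arrays and varied together, so they are not independent of each other.

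M17 was at 7.77, 9.94 and 9.82 on the Col-0 arrays and at 5.92, 6.40 and 5.11 on the ARF10 arrays. Its arrays were far apart in the 2 genotypes, and the Col-0 mean signal was 10.3 times that of ARF10. The difference was -3.36 (SE 0.57, 95% interval -4.64 to -2.09, adjusted p = 0.472). Without Col-0 replicate 1, 2 or 3 it was -4.07, -2.98 or -3.04. On the ARF10 arrays M17 lay near 5.72, the mean log2 signal required for testing, and replicate 3 was below that level, which leaves the size of its difference uncertain. M10 was at 7.25, 9.21 and 9.60 in Col-0 and at 5.85, 6.95 and 5.86 in ARF10, a difference of -2.47 (SE 0.58, adjusted p = 0.892). Without Col-0 replicate 1, 2 or 3 the difference of M10 was -3.19, -2.21 or -2.01. In the gene table used for names, no other protein-coding gene lies between M17 and M10.

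AT3G53040 was the third LEA gene with a difference past 1 and no overlap, at 7.71, 8.95 and 8.81 in Col-0 and at 6.82, 7.45 and 6.71 in ARF10. Its difference was -1.49 (SE 0.33, adjusted p = 0.892). AT2G23120 also had no overlap, at 10.58, 10.82 and 10.14 against 10.07, 9.74 and 9.80, with a difference of -0.64. These 4 genes differed in how replicate 1 of Col-0 behaved: it was the lowest Col-0 array for M17, M10 and AT3G53040, and the middle one for AT2G23120.

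Dehydrins are LEA proteins that bind water and membranes, and 6 of them were tested. Differences were negative in 5, with a median of -0.59, and none of the 6 had arrays that did not overlap. The dehydrin gene named LEA was at 8.65, 10.96 and 10.27 in Col-0 and at 8.11, 9.00 and 8.05 in ARF10 seeds, a difference of -1.58 (SE 0.53, unadjusted p = 0.0155). ARF10 replicate 2 reached into the Col-0 range, above Col-0 replicate 1, and the other ARF10 arrays did not. LTI30 differed by -0.82 (SE 0.41), which was -0.25 without Col-0 replicate 3. COR47 differed by -0.25 (SE 0.16), which was -0.06 without Col-0 replicate 2, and AT4G38410 by 0.17 (SE 0.10). Other LEA genes also had overlapping arrays. AtLEA4-1 was at 11.27, 13.28 and 12.09 in Col-0 and at 11.18, 11.81 and 11.20 in ARF10, a difference of -0.81 (SE 0.45). LEA18 differed by -0.47 (SE 0.27), and AT3G02480 by -0.32 (SE 0.13). Without Col-0 replicate 2, the array on which each of the 3 was highest, these differences were -0.28, -0.18 and -0.22. With the replicate number as a block, the unadjusted p of AtLEA4-1 was 0.0284 and that of LEA18 was 0.0223, against 0.105 and 0.117 without it.

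Of 2 transcription factor genes of seed maturation that were measured, EEL, a bZIP factor that acts on LEA promoters, was at 6.65, 6.06 and 6.48 in Col-0 and at 6.22, 6.03 and 6.01 in ARF10. Its difference was -0.31 (SE 0.17, unadjusted p = 0.102, or 0.0385 with the replicate number as a block), and its arrays overlapped. Without Col-0 replicate 1 the difference was -0.19, and without replicate 2 it was -0.48. BZIP53, a partner in activating maturation genes, differed by 0.10 (SE 0.085). Other regulators of maturation, and the genes of abscisic acid synthesis and signalling, are among probe sets without a name here and were not analysed.

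**Figure D3:**
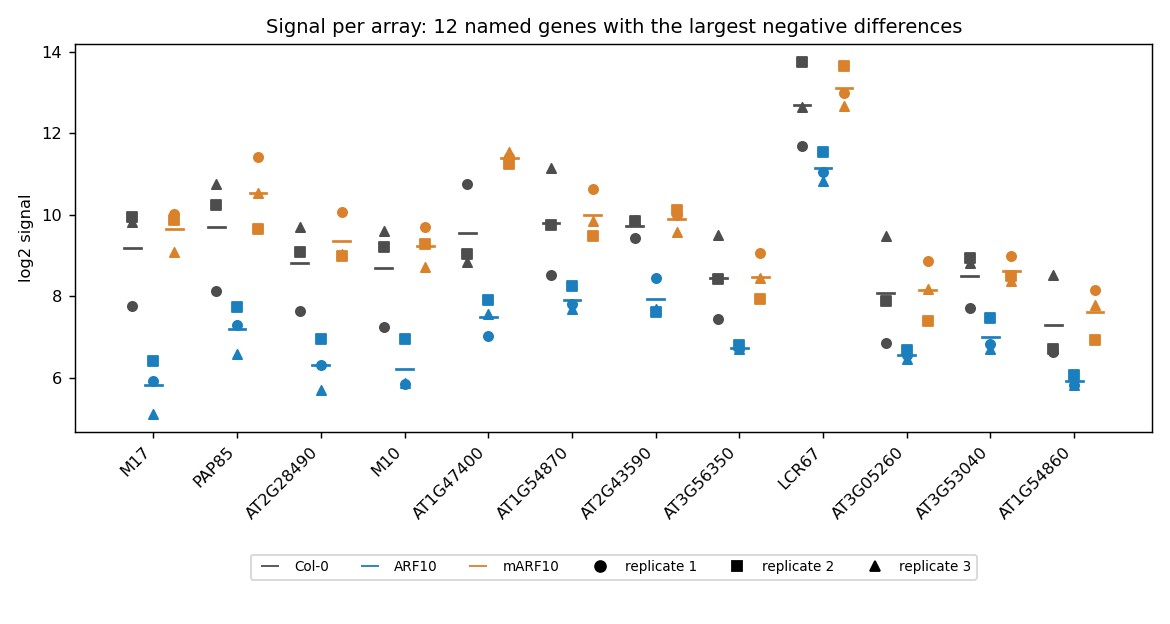
Log2 signal on each array (vertical axis) of the 12 named genes with the largest negative differences among those with an unadjusted p under 0.05 and no overlap between ARF10 and Col-0; symbols are replicates and bars the genotype means. Col-0 replicate 1 is the lowest Col-0 array for every gene shown except AT1G47400, where it is the highest at 10.76.

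Outside the storage and LEA lists, several genes with large differences were of other kinds. They were picked by size and by the lack of overlap, so their values are a description. AT1G54870, of the short-chain dehydrogenase family, was at 8.53, 9.76 and 11.14 in Col-0 and at 7.82, 8.26 and 7.68 in ARF10, a difference of -1.89 (SE 0.56). AT1G54860, which lies next to it with no protein-coding gene between, differed by -1.38 (SE 0.48). AT3G05260, also a short-chain dehydrogenase, differed by -1.51 (SE 0.59). AT3G56350, of the manganese superoxide dismutase family, was at 7.43, 8.41 and 9.51 in Col-0 and within 0.06 (SD) of 6.73 in ARF10. Its difference was -1.72 (SE 0.46). In all 4 genes replicate 3 was the highest Col-0 array and replicate 1 the lowest, while the ARF10 arrays lay close together. Without Col-0 replicate 3 the differences of AT1G54870, AT1G54860 and AT3G05260 were -1.23, -0.76 and -0.80.

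AT2G43590, of the chitinase family, was the named gene with the smallest adjusted p (0.248). It was at 9.42, 9.85 and 9.88 in Col-0 and at 8.45, 7.61 and 7.70 in ARF10 seeds, a difference of -1.80 (SE 0.24, 95% interval -2.33 to -1.26). Here the Col-0 arrays agreed more closely with each other than for M17, M10, PAP85 and AT2G28490, and ARF10 replicate 1 stood above the other ARF10 arrays. Its mean in mARF10 seeds was 9.89. QQS, an orphan gene that affects leaf starch, was at 6.95, 7.06 and 6.43 in Col-0 and at 5.68, 5.86 and 5.74 in ARF10, a difference of -1.05 (SE 0.15, adjusted p = 0.281). Its mARF10 arrays lay at 5.70 to 5.83, within the range of ARF10 and below Col-0, and all of these are close to the filter of 5.72.

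Defensins and thionins are small cysteine-rich peptides of seed and leaf defence. Of the 4 tested members of that list, 2 had negative and 2 positive differences. LCR67, also known as PDF1.1, was at 11.68, 13.76 and 12.64 in Col-0 and at 11.04, 11.55 and 10.83 in ARF10, a difference of -1.56 (SE 0.47, adjusted p = 0.892) that was -1.02 without Col-0 replicate 2. PDF2.1 was at 8.48, 11.73 and 10.22 against 8.38, 8.57 and 8.42, and its arrays overlapped through Col-0 replicate 1. Among the list's other members, PDF1.2b differed by -0.79 (SE 0.30), or -0.45 without Col-0 replicate 2. PDF1.2, the gene used as a marker of the jasmonate response, differed by 0.07 (SE 0.10), and the thionin gene THI2.2 by 0.17 (SE 0.088). AT2G15010, of the thionin family, was at 9.36, 10.87 and 9.71 in Col-0 and at 8.71, 9.24 and 8.80 in ARF10 seeds, with no overlap; it and PDF2.1 are outside the list and are given because they were at least 2-fold lower. These peptides form families of similar sequence, and cross-hybridisation between them was not assessed.

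Genes of the iron-deficiency response were measured in 5 of 6 named members, with 4 negative differences and a median of -0.27. That median is the value of BHLH101, whose mean signal was under the filter in both genotypes compared. Plants short of iron switch on uptake and signalling genes through basic helix-loop-helix factors and small peptides of the IRONMAN family. AT1G47400, which encodes one of those peptides, was at 10.76, 9.03 and 8.84 in Col-0 and at 7.03, 7.91 and 7.56 in ARF10. The difference was -2.04 (SE 0.45, 95% interval -3.05 to -1.04, adjusted p = 0.892). Col-0 replicate 1 was its highest array, while it was the lowest Col-0 array for PAP85, AT2G28490, M17 and M10. Without that array the difference of AT1G47400 was -1.44. In mARF10 seeds it was at 11.25 to 11.54.

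PYE, which encodes POPEYE, a basic helix-loop-helix factor of the iron response, was at 8.60, 8.56 and 8.03 in Col-0 and at 7.67, 7.85 and 7.53 in ARF10. Its arrays did not overlap, at a difference of -0.71 (SE 0.16, unadjusted p = 0.00136). BHLH101 differed by -0.27 (SE 0.14), with ARF10 arrays at 5.23 to 5.36, under the filter. AT3G58060, which encodes a metal transporter, differed by 0.02 (SE 0.11). No member of the list passed the adjusted threshold.

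Photosynthesis genes lay on the other side of 0. Of 49 listed genes of the light-harvesting antenna, the photosystems and the plastid ATP synthase, 8 had a named probe set and were tested. All 8 had positive differences, with a median of 0.41. None passed the adjusted threshold, 2 had an unadjusted p under 0.05 (2.21% of all tested probe sets were higher at that p), and 2 had no overlap (5.59% did on the higher side). With the replicate number as a block, 5 had an unadjusted p under 0.05 (6.26% of all tested probe sets in either direction). Their mean signal was 9.91, 8.89 and 9.72 on the Col-0 arrays and between 9.74 and 10.07 on the ARF10 arrays. Col-0 replicate 2 was the low array, and without it the median was 0.11, against 0.64 without replicate 1 and 0.51 without replicate 3.

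LHCB4.3, an antenna protein of photosystem II, was at 8.70, 8.54 and 8.64 in Col-0 and at 8.94, 8.88 and 9.05 in ARF10. Its difference was 0.33 (SE 0.079, unadjusted p = 0.00223) with no overlap, and 0.29 without Col-0 replicate 2. LHCB4.1 was at 11.07, 10.15 and 10.94 against 11.41, 11.06 and 11.36, a difference of 0.56 (SE 0.23) that was 0.27 without Col-0 replicate 2, and the arrays overlapped by a narrow margin. PSAN, a subunit of photosystem I, was at 8.41, 6.33 and 7.91 against 8.43, 7.89 and 8.17. Its difference of 0.61 (SE 0.45) was 0.005 without Col-0 replicate 2. ATPC1, the gamma subunit of the plastid ATP synthase, differed by 0.25 (SE 0.13) without overlap, and by 0.12 without Col-0 replicate 2. Its unadjusted p was 0.084, or 0.0459 with the replicate number as a block.

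The 3 measured genes of the Calvin cycle, RCA, SBPASE and PRK, differed by 0.47 (SE 0.34), 0.47 (SE 0.35) and 0.64 (SE 0.51). All 3 had overlapping arrays, and Col-0 replicate 2 was the lowest for each. Without that array the median of the 3 was -0.009, so the direction rested on it. Of the 6 chlorophyll synthesis genes, 5 had positive differences, and HEMA2 differed by -0.10 (SE 0.093). Their median of 0.28 was 0.09 without Col-0 replicate 2. Of the 6, 1 had an unadjusted p under 0.05 (2.21% of all tested probe sets were higher at that p). With the replicate number as a block, 2 did (6.26% of all tested probe sets in either direction). PORB, the light-dependent protochlorophyllide oxidoreductase that greens the seedling, was the one named gene at least 2-fold higher. It was at 10.53, 8.48 and 10.18 in Col-0 and at 10.95, 10.51 and 10.86 in ARF10, a difference of 1.04 (SE 0.48, unadjusted p = 0.0573, or 0.025 with the replicate number as a block) that was 0.42 without Col-0 replicate 2, and ARF10 replicate 2 was below Col-0 replicate 1. CHLM, a methyltransferase of chlorophyll synthesis, differed by 0.33 (SE 0.14) and HEMB1, of tetrapyrrole synthesis, by 0.27 (SE 0.13). Both were without overlap (5.59% of all tested probe sets on the higher side). Without Col-0 replicate 2 they differed by 0.17 and 0.14.

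**Figure D4:**
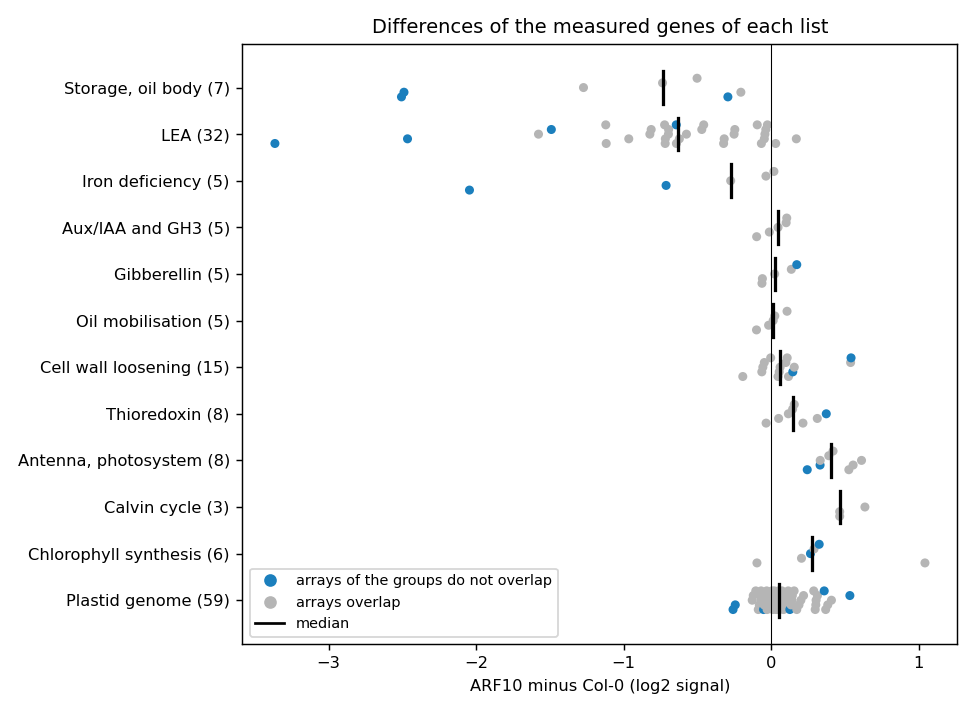
Difference between ARF10 and Col-0 (horizontal axis, log2 signal) of every tested gene of 12 lists (rows, with the number of genes in brackets); blue points are genes whose arrays do not overlap between the genotypes and bars are medians. The storage and LEA rows lie mostly left of 0, with medians of -0.74 and -0.63, the antenna row lies right of it at 0.41, and the auxin, gibberellin and oil mobilisation rows are centred near 0.

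Transcripts of the plastid's own genome were measured for 59 of 69 named genes, and 40 had positive differences (52.8% of all tested probe sets did), with a median of 0.05. petL, a subunit of the cytochrome b6f complex, was at 6.60, 6.16 and 6.59 in Col-0 and at 6.72, 7.25 and 6.99 in ARF10, a difference of 0.53 (SE 0.15). psaJ, of photosystem I, was at 9.87, 9.83 and 9.82 against 10.15, 10.30 and 10.15, a difference of 0.36 (SE 0.12). clpP, the plastid protease subunit, was lower, at 9.54, 9.74 and 9.59 against 9.37, 9.35 and 9.38. Of 8 thioredoxin genes, which encode small redox proteins, 7 had positive differences, with a median of 0.15. ty2, a plastid thioredoxin, was at 10.34, 10.23 and 10.34 in Col-0 and at 10.84, 10.54 and 10.64 in ARF10, a difference of 0.37 (SE 0.087, unadjusted p = 0.00198). One thioredoxin gene had an unadjusted p under 0.05 (4.64% of all tested probe sets), and 3 did with the replicate number as a block (6.26%).

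The named genes with the largest positive differences and no overlap were all less than 2-fold higher. AT2G36885 was at 8.89, 7.97 and 9.10 in Col-0 and at 9.80, 9.18 and 9.65 in ARF10, a difference of 0.89 (SE 0.28, 95% interval 0.27 to 1.51). AT2G46630 differed by 0.70 (SE 0.25) and AT5G11990 by 0.60 (SE 0.16). Col-0 replicate 2 was the lowest array for all 3, and without it their differences were 0.55, 0.36 and 0.45.

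ATGSTF13, a glutathione S-transferase, was at 6.48, 6.66 and 6.61 in Col-0 and at 7.17, 7.07 and 7.21 in ARF10. It had the smallest adjusted p among named higher genes, 0.422, at a difference of 0.57 (SE 0.087), and Col-0 replicate 2 was its highest Col-0 array. AT1G72800 was at 9.01, 8.79 and 9.24 against 9.41, 9.66 and 9.63, a difference of 0.56 (SE 0.12). sks16, of the multicopper oxidase-like SKU5 family, differed by 0.44 (SE 0.18), or 0.22 without Col-0 replicate 2, and its mARF10 mean of 8.73 was higher still than the ARF10 mean of 7.96. Others in this group were AT3G61870 at 0.53, AT3G29120 at 0.48, AT5G38700 at 0.45 and AT3G20260 at 0.42, with adjusted p = 0.892 each. Without Col-0 replicate 2, AT3G61870 differed by 0.24 and AT5G38700 by 0.28, and without Col-0 replicate 3, AT3G29120 differed by 0.26.

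**Figure D5:**
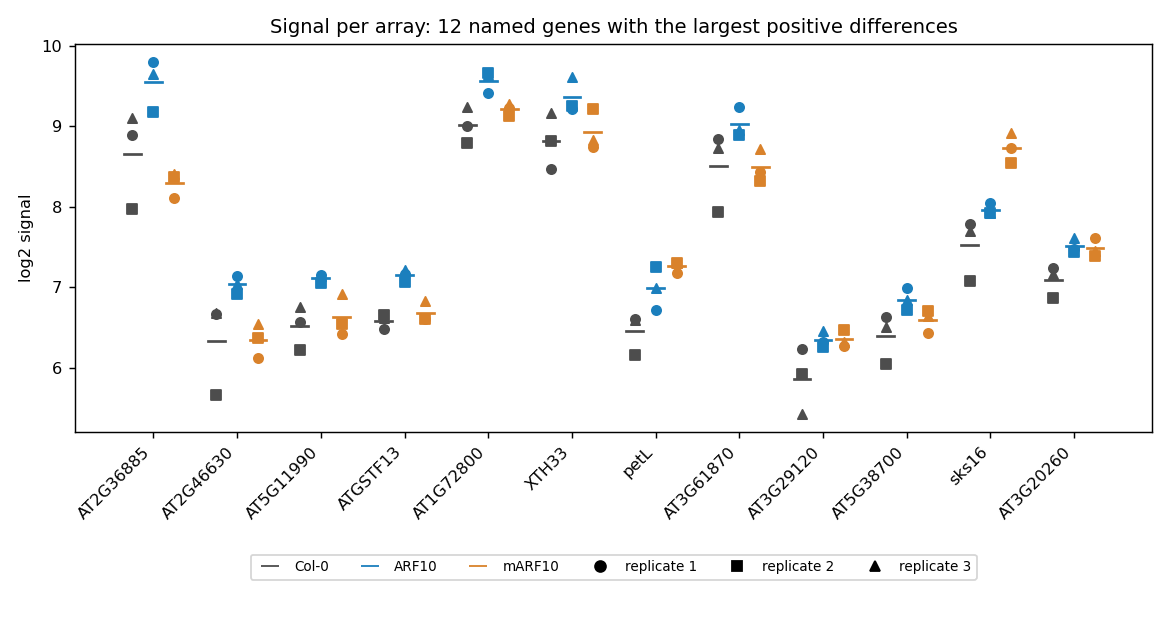
Log2 signal on each array (vertical axis) of the 12 named genes with the largest positive differences among those with an unadjusted p under 0.05 and no overlap between ARF10 and Col-0; symbols are replicates and bars the genotype means. The differences are between 0.42 and 0.89, and Col-0 replicate 2 is the lowest Col-0 array in 9 of the 12.

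Cell wall loosening enzymes, which let the embryo expand, were measured in 15 of 18 named genes, with 10 positive differences and a median of 0.06. XTH33, a xyloglucan endotransglucosylase, was at 8.47, 8.81 and 9.17 in Col-0 and at 9.21, 9.26 and 9.61 in ARF10. Its difference was 0.54 (SE 0.19) without overlap. XTH18 differed by 0.54 (SE 0.26), with overlap, and the expansin EXPA20 by 0.16 (SE 0.084). Of the 15, 1 had an unadjusted p under 0.05, near the 4.64% of all tested probe sets, and 3 did with the replicate number as a block (6.26% of all). XTH18 was 1 of those 3, at 0.00487 against 0.0711 without the block, and its difference was 0.31 without Col-0 replicate 2.

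Auxin-response genes of the Aux/IAA and GH3 families, the classes that auxin response factors act on, were tested in 5 of 12 named members and showed a median of 0.05. WES1, which encodes an enzyme that conjugates auxin to amino acids, was at 7.998, 8.32 and 8.13 in Col-0 and at 8.01, 8.04 and 8.10 in ARF10, a difference of -0.10 (SE 0.086). IAA18, a repressor that binds auxin response factors, differed by 0.05 (SE 0.062), GH3.1 by 0.11 (SE 0.13) and GH3.17 by 0.10 (SE 0.18). For none of the 5 was the unadjusted p under 0.05, and with these intervals a small change cannot be told from none. The other 7 named members were below the filter.

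In the gibberellin list, 5 of 5 named members were tested, with a median of 0.02. SPT, which encodes SPATULA, a factor that restrains germination, was at 9.29, 9.14 and 9.17 against 9.44, 9.30 and 9.37, a difference of 0.17 (SE 0.072) without overlap. The gibberellin receptors GID1B and GID1C differed by 0.14 (SE 0.14) and -0.06 (SE 0.088). The breakdown of storage oil feeds the seedling, and its 5 measured genes had a median of 0.01. ICL, isocitrate lyase of the glyoxylate cycle, was at 14.64 to 14.68 on the Col-0 arrays and at 14.63 to 14.74 on the ARF10 arrays. That is the highest signal of each of these arrays, so a difference may be hidden at the top of the scale, and saturation was not assessed. SDP1, the lipase that starts oil breakdown, differed by -0.02 (SE 0.079), and by 0.01 with arrays centred on their medians.

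Single genes of other lists also had small differences. GI, of the circadian clock, differed by 0.01 (SE 0.071), AGO7 and SE, of small RNA pathways, by 0.10 (SE 0.097) and -0.10 (SE 0.10), and PRL, a replication factor, by 0.15 (SE 0.20). Without Col-0 replicate 2 the difference of PRL was -0.04. Of markers for other parts of the seed, the seed coat genes BAN and ARA12 differed by 0.07 (SE 0.098) and 0.04 (SE 0.14), the 1 named endosperm marker was below the filter, and the meristem and leaf markers PHV and CLV3 differed by -0.15 (SE 0.11) and 0.04 (SE 0.13). The mean of the 2 seed coat genes was 9.29 to 9.48 on the Col-0 arrays and 9.34 to 9.56 on the ARF10 arrays. Of 4 reference genes, AT4G26410 was higher by 0.24 (SE 0.078) without overlap, and the other 3 differed by -0.03 to 0.02.

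The count of called genes depended on which Col-0 array was used. Without Col-0 replicate 1, 19 probe sets passed the adjusted threshold (0.119%), all lower in ARF10 and 17 of them at least 2-fold, with adjusted p from 0.0194 to 0.0478. Of these, 9 carried a name. They were M17 (-4.07), M10 (-3.19), AT2G28490 (-3.08), BGLU19, a beta-glucosidase (-2.46), AT3G58450 (-2.21), AT2G43590 (-1.94), AT3G53040 (-1.88), AT4G31830 (-1.36) and AT4G18650, of the DOG1-like family (-0.69). BGLU19, which is named only because it passed without that array, was at 6.54, 9.14 and 9.19 in Col-0 against 6.69, 7.22 and 6.22 in ARF10. For this gene Col-0 replicate 1 lay inside the ARF10 range. Without Col-0 replicate 3, only QQS passed (-1.24, adjusted p = 0.0100). Without Col-0 replicate 2, or without any one ARF10 or mARF10 array, 0 passed.

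The 65 probe sets at least 2-fold lower show the same pattern of arrays, and since size chose them this is a description. Col-0 replicate 1 was the lowest Col-0 array in 58 of the 65, against 5933 of all 15922 tested. In 43 of the 65 there was no overlap between the genotypes (3.61% of all tested probe sets on the lower side). The median signal of the 65 was 7.71, 9.09 and 9.49 on the Col-0 arrays, 6.84, 7.38 and 6.72 on the ARF10 arrays and 9.42, 8.83 and 8.81 on the mARF10 arrays. The median SD was 1.15 in Col-0 and 0.33 in ARF10. The number of probe sets at least 2-fold lower was 102 without Col-0 replicate 1, 58 without replicate 2 and 53 without replicate 3, and the number at least 2-fold higher was 15, 0 and 10. Of the 65, 30 carried a single named gene, 6 of them LEA and 3 storage genes, and 35 had no single gene name.

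The smallest p of the whole comparison belonged to probe set 259008_at, which has no gene name here. It was at 12.12, 12.13 and 12.17 on the Col-0 arrays and at 11.43, 11.22 and 11.30 on the ARF10 arrays, so both genotypes were tight and well apart. The difference was -0.82 (SE 0.086, adjusted p = 0.0787). Of the 3 largest differences, M17 was the second, and the other 2, 248125_at at -3.38 and 248520_at at -3.19, have no name here either. ARF10 itself, and its relatives ARF16 and ARF17 that microRNA160 also targets, have no named probe set, so the transgene's transcript was not analysed here.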

How the data were processed

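RNA of 9 samples of germinating seeds, 3 per genotype, was measured on a 1-colour array with biotin label. The values are the log2 signals that the authors deposited for each probe set. Base 2 was inferred from their range of 3.70 to 14.78; their summary and normalization are not stated in the labels or headers. Array medians of 7.06 to 7.11 show a common scale. Of 22810 probe sets, 64 controls were left out. A probe set was tested if its 9-array mean reached the 30th percentile (5.72), which kept 15922 and dropped 6824. The platform annotation gave 1 gene for 13513 non-control probe sets, several for 503 and nothing for 8730, and 13436 matched the TAIR10.1 gene table, used for names and neighbours. A gene with several probe sets is shown by the one with the highest mean. List results cover only genes with a named probe set, and a measured gene of a list is one that was named and tested. Named were 9 of 24 storage, 35 of 51 LEA and 8 of 49 antenna and photosystem genes. For the Calvin cycle it was 3 of 9, for chlorophyll synthesis 6 of 18 and for oil mobilisation 5 of 21.

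limma 3.58.1 (R 4.3.3) fitted 1 mean per genotype over 9 arrays (6 residual and 3.11 prior degrees of freedom), with two-sided tests of ARF10 minus Col-0, Benjamini-Hochberg adjustment over all 15922 and a threshold of 0.05. The code was tested on simulated data. Errors are SD over 3 arrays or limma's SE. The number of arrays limits the precision, and whether a single probe set was above background was not assessed. The labels describe the same-numbered samples of the genotypes together as 1 independent replicate. The deviations of same-numbered ARF10 and Col-0 arrays from their genotype means correlated at 0.478, 0.49 and 0.195 (different numbers, -0.521 to 0.144). The numbers were therefore taken to pair the samples, but only in the alternative fit with the replicate number as a block. Unless the block is named, SEs, intervals and p-values are from the fit without it and do not use the pairing. For mARF10 the same-numbered correlations were -0.165, 0.479 and 0.243 with Col-0 and -0.082, 0.159 and 0.252 with ARF10. The pairing of mARF10 replicate 1 is thus not borne out by these values. The block changed no call after adjustment, as 0 probe sets passed with or without it. Unadjusted values with it are given for some lists and genes. The single genes given with it above had a smaller p with the block, and other genes had a larger one. In limma's moderated test of the 6 arrays, the unadjusted p of M17 went from 0.000207 to 0.0017 with the block. That of AT2G28490 went from 0.00111 to 0.00519, of AT1G47400 from 0.00128 to 0.0142 and of petL from 0.00656 to 0.0424.

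Named are the 12 largest differences per direction among genes with an unadjusted p under 0.05 and no overlap between the genotypes' arrays, genes that pass when 1 array is left out, and up to 4 members of each list with the smallest p. Other members were named after their values were seen. The comparison, this rule and the gene lists were chosen with earlier results of these data known.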

Additional observations from a re-analysis of the deposited data

How the results depend on the processing

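The count of probe sets that passed was 0 with no filter, a filter at the 50th percentile, centring on array medians, values floored at log2 4, the 6 arrays alone, either replicate block and the unmoderated test. It was 1 after quantile normalization, 1 under trended, robust moderation and 1 with array weights, in each case probe set 259008_at. Leaving out 1 array gave 0 to 19, the 19 when Col-0 replicate 1 was dropped and 1 when Col-0 replicate 3 was. The unadjusted count of 739 was 1330 with array weights, 1157 with the replicate block over 9 arrays, 2000 without Col-0 replicate 1 and 402 without ARF10 replicate 3. The causes were not tested.

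Over all alternatives, 1901 values of the probe sets named in the text kept their direction and their side of the threshold, 15 newly passed (12 of them when a Col-0 array was dropped, and 259008_at in the 3 settings above), and 22 changed sign. SDP1 was 0.01 with median centring and with array weights GH3.17 was -0.051, AGO7 -0.031 and GI -0.048. With 1 array left out, SDP1 ranged from -0.071 to 0.024, GH3.1 from -0.038 to 0.189, GH3.17 from -0.096 to 0.225, GID1B from -0.023 to 0.26, ARA12 from -0.054 to 0.138, CLV3 from -0.013 to 0.095, PRL from -0.041 to 0.362, GI from -0.019 to 0.061, AT3G58060 from -0.093 to 0.12, AT3G12900 from -0.111 to 0.017, ICL from -0.001 to 0.052, SBPASE from -0.009 to 0.746 and PRK from -0.018 to 1.101. The medians of the storage, LEA, antenna and chlorophyll lists kept their sign in all of these alternatives.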
